A study of Mus musculus with 24 samples.

Results

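The 28 genes described here are 20 enzymes that build cholesterol, 5 regulators of their transcription and 3 genes of sterol transport. They were chosen by name, for their known roles, with earlier results of these data known. All 28 of the 28 were found among the 38924 genes listed per library and among the 17409 that passed the filter on low counts. Stranded libraries of poly(A) RNA were sequenced from the whole spinal cord of mice aged 8 weeks, 24 in all, 13 from males and 11 from females. All mice were on the background the labels call B6J;CASTxB6.129, and the labels name no tissue-specific driver for either allele. The group WTWT was Gcn2+/+;Gars+/+ (n = 4), WTHet was Gcn2+/+;GarsP278KY/+ (n = 4), HomoWT was Gcn2-/-;Gars+/+ (n = 3) and HomoHet was Gcn2-/-;GarsP278KY/+ (n = 5). The groups HetWT, Gcn2+/-;Gars+/+, and HetHet, Gcn2+/-;GarsP278KY/+, had 4 libraries each, and the series' own design text names only the other 4 genotypes. Gars encodes glycyl-tRNA synthetase, and GarsP278KY is a dominant mutation used as a mouse model of an inherited neuropathy. Gcn2 (gene symbol Eif2ak4) is a kinase activated by uncharged tRNA, as in amino acid shortage, and by stalled ribosomes. The comparisons ask how the members' RNA differed with mutant Gars, and whether that difference depended on Gcn2. The labels give each library its own number and sex but do not say in words that each is a separate animal, so p-values measure the spread between these libraries.

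Cholesterol is built from acetyl-CoA through mevalonate, isoprenoid diphosphates, squalene and lanosterol. The transcription factor SREBP2, encoded by Srebf2, switches most of the enzyme genes on together. SCAP escorts SREBP from the endoplasmic reticulum to the Golgi, where proteases release it, and the INSIG proteins hold the complex back when sterols are plentiful. In the central nervous system cholesterol is made locally, because lipoproteins of the blood do not cross the blood-brain barrier. Oligodendrocytes use much of it for myelin, and astrocytes load it onto apolipoprotein E (Apoe) with the help of the exporter ABCA1. In bulk tissue, fewer cells of a type and less RNA per cell cannot be told apart.

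Promoter sequences of 4 members are shown because these genes moved together from library to library, as described below: the synthase at the head of the pathway, the feedback regulator Insig1, and the enzymes that make lanosterol (Lss) and remove its first methyl group (Cyp51). The sequences are RefSeq's, on GRCm38.p6, and end before the first base of the gene in both RefSeq and GENCODE M21. Each reads 5′ to 3′ on the gene's strand. Capitals mark TCACCCCAC (a sterol regulatory element), CCAAT (bound by NF-Y), GGGCGG (bound by Sp1) and CACGTG (an E-box), searched on both strands. The stretches are chr13:119690101-119690350 (plus strand) for Hmgcs1, chr5:28071162-28071362 (plus) for Insig1, chr5:4104747-4104947 (minus) for Cyp51 and chr10:76531355-76531587 (plus) for Lss.
Hmgcs1: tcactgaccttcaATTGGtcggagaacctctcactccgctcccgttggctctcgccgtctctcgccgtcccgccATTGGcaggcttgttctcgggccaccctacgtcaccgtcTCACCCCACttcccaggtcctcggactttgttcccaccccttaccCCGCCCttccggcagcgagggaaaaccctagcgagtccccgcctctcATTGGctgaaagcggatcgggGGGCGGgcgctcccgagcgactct
Insig1: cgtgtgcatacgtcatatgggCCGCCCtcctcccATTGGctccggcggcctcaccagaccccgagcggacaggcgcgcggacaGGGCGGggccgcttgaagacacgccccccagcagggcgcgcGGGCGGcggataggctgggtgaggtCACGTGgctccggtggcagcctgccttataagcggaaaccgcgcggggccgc
Cyp51: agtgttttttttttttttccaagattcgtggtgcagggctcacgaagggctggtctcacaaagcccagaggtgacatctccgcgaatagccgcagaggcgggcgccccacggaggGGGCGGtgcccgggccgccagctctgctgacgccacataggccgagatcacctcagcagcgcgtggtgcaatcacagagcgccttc
Lss: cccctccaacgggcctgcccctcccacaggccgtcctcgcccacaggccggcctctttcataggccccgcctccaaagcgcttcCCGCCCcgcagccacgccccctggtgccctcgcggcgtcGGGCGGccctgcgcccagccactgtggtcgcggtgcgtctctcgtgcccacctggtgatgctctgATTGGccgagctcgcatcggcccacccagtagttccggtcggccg

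Windows of 300 bases, 250 before and 50 after the RefSeq start, were found for 24 of the 28 members; Fdps, Fdft1, Sqle and Stard4 had none. The 9 letters TCACCCCAC were in the window of 1 of the 24, Hmgcs1, and in those of 0.614% of 27025 genes. CCAAT was in 20 of the 24 members and in 41.1% of all genes. GGGCGG was in 21 of the 24 members and in 38.2% of all genes. CACGTG was in 6 of the 24 (Insig1, Scap, Abca1, Hsd17b7, Sc5d and Dhcr7) and in 8.09% of all genes. A match is a string of letters and not a measured binding site, and variants of the sterol element were not searched.

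Library totals ran from 19.73 to 32.39 M (mega) expected counts. CPM below is a count divided by the library's total in M after TMM scaling, a level that is compared only within a gene, and TPM is the deposited value per transcript length, which allows comparison between genes. Eif2ak4 matched the Gcn2 labels, at 28.9 to 34.4 CPM in the 8 Gcn2+/+ libraries, 20.4 to 23.6 in the 8 Gcn2+/- and 11.4 to 15.0 in the 8 Gcn2-/-. The tissue's main cells were represented, with the 15 oligodendrocyte and myelin markers summing to between 20660 and 32150 TPM and none of them at 0. Markers of Schwann cells, the glia of nerve roots, had a mean log2 CPM of 3.37 to 5.80 in 5 libraries (WTHet 2 and 4, HetWT 1 and 3, HetHet 4) and of 0.34 to 1.95 in the other 19. Every library title opens with 1 of 8 numbers whose meaning is not stated, each shared by 1 to 6 libraries. The labels also name 2 library kits without saying which library had which.

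The pathway's genes spanned a wide range of levels. Apoe was the most abundant member at a mean of 3371 TPM over 24 libraries (2416 to 4431). It lies at chr7:19696109-19699188 on the minus strand (GRCm38, GENCODE M21). Hmgcs1, the cytosolic HMG-CoA synthase on the way to mevalonate, lies at chr13:119690379-119708260 on the plus strand and followed at 363 TPM (240.5 to 620.8). Of the other 4 enzymes that lead to and through mevalonate, Acat2 (acetoacetyl-CoA thiolase) was at 71.0 TPM, Pmvk (phosphomevalonate kinase) at 51.2, Mvk (mevalonate kinase) at 30.2 and Mvd (the decarboxylase) at 26.6. Among the enzymes from isoprenoid units to squalene epoxide, Fdps (farnesyl diphosphate synthase) was at 114 TPM, Sqle (squalene epoxidase) at 78.9, Idi1 (the isopentenyl diphosphate isomerase) at 78.4, Fdft1 (squalene synthase) at 73.6 and Ggps1 at 42.3. Ggps1 makes geranylgeranyl diphosphate, a side branch used to anchor proteins in membranes.

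The 10 enzymes that work on the sterol rings ran from 139 to 12.6 TPM. Msmo1, the oxidase that starts removal of a pair of methyl groups, was the highest. Sc5d (a sterol desaturase) followed at 92.5 TPM, Cyp51 at 75.0, Dhcr7 (the reductase of a final step) at 50.3 and Lss at 42.9. Nsdhl, Ebp and Hsd17b7, which carry out later ring steps, were at 39.8, 38.7 and 22.5 TPM. Of the sterol reductases with overlapping activity, Tm7sf2 was at 29.2 TPM and Lbr, also a receptor of the nuclear lamina, was lowest. Among regulators Insig1 was at 104 TPM, Srebf2 at 82.5, Insig2 at 59.9, Scap at 53.2 and Srebf1, which encodes SREBP1, at 47.8. In transport, Stard4, a cytosolic sterol carrier, was at 23.7 TPM and Abca1 lowest of all members at 11.9. Expected counts of Idi1, Msmo1, Ggps1 and Scap were fractional in all 24 libraries, so some of their reads were shared out with other genes. Mvd, Fdft1, Lss, Cyp51, Ggps1, Lbr, Srebf1 and Scap overlap genes on the other strand. Fdps, Tm7sf2, Lbr, Srebf1 and Srebf2 overlap genes on their own strand. Of the overlapping members, Mvd, Cyp51, Fdps, Lbr, Srebf1 and Srebf2 had whole counts in all 24 libraries, so their reads were not shared out. Counts were fractional in 23 libraries for Acat2 and Fdft1, in 20 for Tm7sf2 and in 16 for Lss. The values of members with fractional counts or overlaps are less certain by an unmeasured amount.

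Between libraries of a genotype, the median member varied more than the median gene. The median SD of log2 CPM within groups was 0.22 over the 20 enzymes and 0.20 over the 28 members. Over the 10350 tested genes with a mean CPM of at least 10, it was 0.12. The group means of the enzymes had a median SD of 0.09, against 0.07 over those genes. The ratio of the highest to the lowest library was greatest for Pmvk, at 2.88 (11.6 to 33.5 CPM), followed by Hmgcs1 at 2.66, Idi1 at 2.53, Mvd at 2.46 and Cyp51 at 2.10. It was smallest for Insig2, at 1.27, Scap at 1.28 and Ggps1 at 1.29. The libraries thus differed most in enzyme genes, and least in 2 of the regulators and the side-branch enzyme. These values are descriptions, since the members were chosen with earlier results of these data known.

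No member passed the test for any difference among the 6 genotypes. By edgeR's quasi-likelihood test, with adjustment over all 17409 genes, 0 of 28 members were called at an adjusted p below 0.05, where 0.73% of all genes were. Unadjusted p was below 0.05 for 3 members (Apoe, Srebf1 and Scap), against 14.3% of all genes, and DESeq2 called 1 member, Apoe (adjusted p = 0.0272). Hmgcs1 shows the spread behind this. Its CPM was 532.5, 754.7, 435.1 and 1083 in WTWT, 585.7, 562.4, 565.9 and 728.6 in WTHet, and 412.9, 752.8 and 786.9 in HomoWT. It was 662.4, 673.7, 525.3, 531.7 and 407.8 in HomoHet, 759.0, 602.9, 636.4 and 480.9 in HetWT, and 551.9, 719.3, 535.8 and 637.8 in HetHet. The WTWT libraries held both the highest of all 24 values and one of the 3 lowest, and they overlapped every other group.

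**Figure D1:**
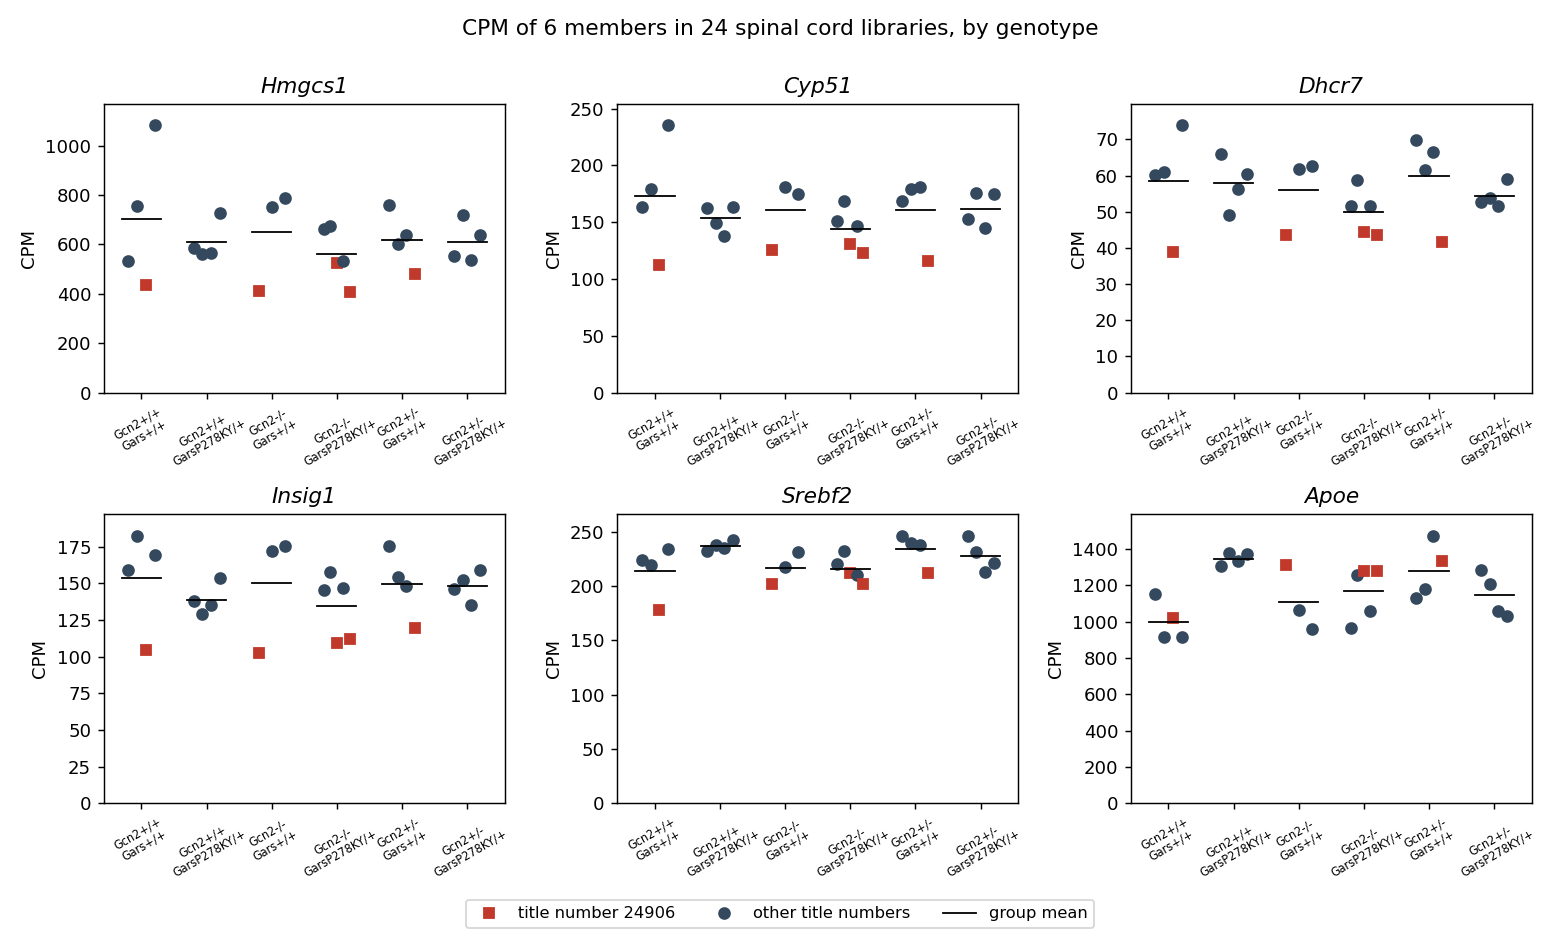
CPM (vertical axis, from 0) of Hmgcs1, Cyp51, Dhcr7, Insig1, Srebf2 and Apoe in each of 24 libraries, by genotype; lines are group means, and squares are the 5 libraries whose titles open with 24906. The squares lie at the bottom of their groups for Hmgcs1 (408 to 525 CPM), while the Apoe values of WTHet (1303 to 1377) lie wholly above those of WTWT (912.1 to 1149).

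Mutant Gars with both Gcn2 copies intact left the synthesis enzymes without a called difference and Apoe just short of one. In WTHet against WTWT, 0 of 28 members were called where 0.632% of all genes were. Unadjusted p was below 0.05 for 4 members (14.3% of 28 against 17.3% of all genes), and DESeq2 called Apoe alone, with an adjusted p of 0.00373. Fold changes lay below 0 for 21 members, with a median log2 fold change of -0.07, where 47.3% of all genes lay below 0 with a median of 0.01. All 10 ring enzymes and all 5 enzymes from Idi1 to Sqle lay below 0, as did 3 of the 5 mevalonate enzymes, 2 of the 5 regulators and 1 of the 3 transport genes. These signs come from genes that vary together between libraries, so they are not independent of one another. The log2 fold changes reached from -0.24 (Hmgcs1) to 0.48 (Apoe), and the 95% confidence interval lay within 2-fold in either direction for all 28 members and within 1.5-fold for 22.

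Apoe, the main lipid carrier secreted by glia, had the smallest p in this comparison. Its CPM was 1149, 912.1, 1021 and 913.1 in WTWT and 1303, 1377, 1331 and 1371 in WTHet. Every WTHet library was above every WTWT library, and the group means were 999 ± 112 (SD, n = 4) and 1346 ± 34.9 (SD, n = 4). The log2 fold change was 0.48 ± 0.11 (SE), or 1.40-fold, with a 95% confidence interval of 0.25 to 0.72 and an adjusted p of 0.0502 by edgeR, which misses the threshold. Within title numbers 24905 to 25006, which hold 12 libraries, the difference was 0.37 (2 WTHet against 1 WTWT) and within 25102 to 25801 it was 0.48 (2 against 3). Over 18 other settings it stayed between 0.43 and 0.55 with adjusted p from 0.00373 to 0.256, and 2 of the 18 gave a call (DESeq2, and without WTWT 1, where the adjusted p was 0.0192).

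The regulators came next. Insig2, which anchors SCAP and SREBP in the endoplasmic reticulum, had 45.2, 57.3, 57.5 and 52.4 CPM in WTWT and 49.2, 46.8, 46.7 and 47.4 in WTHet, with a log2 fold change of -0.15 ± 0.07 (SE) and an adjusted p of 0.243 by edgeR. Srebf1, which drives fatty acid synthesis, had 0.21 ± 0.09 (adjusted p = 0.261). Srebf2 had 224, 219, 178 and 234 CPM in WTWT and 232, 238, 235 and 242 in WTHet, a log2 fold change of 0.16 ± 0.08 (adjusted p = 0.281). The WTHet values of these genes lay close together, and all 3 overlapped the WTWT range.

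**Figure D2:**
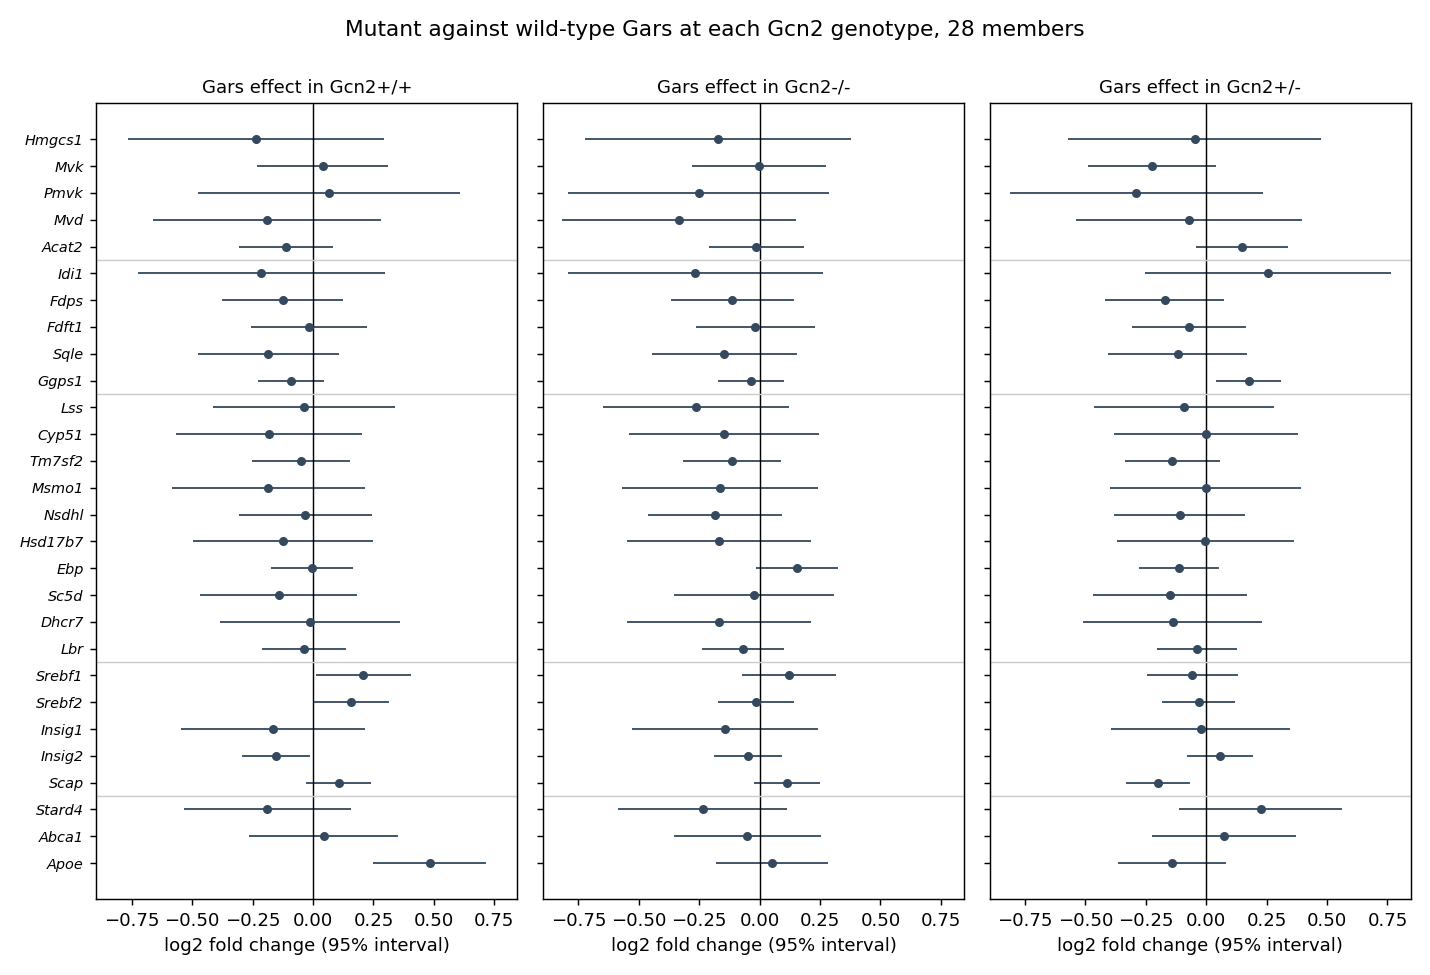
Log2 fold change of mutant against wild-type Gars (horizontal axis; bars are 95% confidence intervals from edgeR) for each member, ordered by role, in Gcn2+/+, Gcn2-/- and Gcn2+/- mice. Points reach from -0.33 (Mvd in Gcn2-/-) to 0.48 (Apoe in Gcn2+/+), and every interval lies within 2-fold in either direction.

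Where Gcn2 was absent, mutant Gars again gave no called member. In HomoHet against HomoWT 0 of 28 were called by edgeR, where 0.0115% of all genes were. No member had an unadjusted p below 0.05, against 4.35% of all genes, and DESeq2 called 0. Fold changes lay below 0 for 24 members with a median of -0.11, where 49.1% of all genes did with a median of 0.00. The smallest p belonged to Ebp, a sterol isomerase, with 23.3, 22.0 and 23.9 CPM in HomoWT and 23.4, 28.1, 23.7, 26.5 and 25.7 in HomoHet (log2 fold change 0.16 ± 0.08, adjusted p = 0.941). Mvd had the lowest fold change, at -0.33 ± 0.23, from 15.8, 27.6 and 26.8 CPM in HomoWT and 19.2, 21.01, 18.5, 20.3 and 14.1 in HomoHet. Both genes' groups overlapped. Scap had a log2 fold change of 0.11 ± 0.07 and Lss of -0.26 ± 0.18, each with an adjusted p of 0.941. The confidence interval stayed within 1.5-fold for 23 members.

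With 1 Gcn2 copy, HetHet against HetWT also gave 0 of 28 called by edgeR and 0 by DESeq2, where edgeR called 0.178% of all genes. Unadjusted p was below 0.05 for 2 members, against 14.7% of all genes, and 22 members lay below 0 (median -0.06) where 52.7% of all genes did (median -0.01). The first of the 2 was Scap, the SREBP escort, with 97.5, 107, 103.5 and 110.6 CPM in HetWT and 95.3, 87.1, 93.4 and 87.6 in HetHet. Its groups did not overlap, and the log2 fold change was -0.20 ± 0.06 with an adjusted p of 0.205 by edgeR. The other was Ggps1, with 50.9, 48.9, 46.3 and 44.1 CPM in HetWT and 51.9, 53.2, 56.4 and 52.1 in HetHet (0.18 ± 0.06, adjusted p = 0.244). Its groups did not overlap either, and the order was the opposite one. Mvk had -0.23 ± 0.13 (adjusted p = 0.415) and Acat2 had 0.15 ± 0.09 (adjusted p = 0.455).

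Apoe was the 1 member called in the difference of the Gars effects between Gcn2+/- and Gcn2+/+ mice, a share of the 28 near that of all genes. Its CPM was 1127, 1179, 1472 and 1333 in HetWT and 1286, 1205, 1055 and 1028 in HetHet, so the groups overlapped, with means of 1278 ± 156 (SD, n = 4) and 1143 ± 123 (SD, n = 4). The Gars effect in Gcn2+/- minus that in Gcn2+/+ was -0.62 ± 0.15 (SE) on the log2 scale, with a 95% confidence interval of -0.94 to -0.31 and an adjusted p of 0.0399 by edgeR. In this difference 1 of 28 members was called where 3.7% of all genes were, and 4 members had an unadjusted p below 0.05 against 23.4% of all genes. DESeq2 called 3 members, Apoe (adjusted p = 0.0045), Scap (0.0196) and Ggps1 (0.0397). In edgeR's fit Scap had a difference of -0.30 ± 0.09 (adjusted p = 0.0551), Ggps1 of 0.27 ± 0.09 (0.0797) and Insig2 of 0.21 ± 0.09 (0.162). The members' median difference was -0.01, against -0.03 over all genes.

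The call of Apoe did not hold in most other settings. With title number as a block the difference was -0.39 (adjusted p = 0.443 by edgeR), and 16 of 25 other settings in all lost the call. Leaving out 1 of the 16 libraries at a time kept it in 5 cases (WTWT 1, WTHet 1, HetHet 1, HetWT 1 or HetWT 2) and lost it in the other 11, with adjusted p from 0.013 to 0.0979 over the 16. Without the 5 libraries high in Schwann cell markers the difference was -0.54 (adjusted p = 0.277). Without the 5 libraries of title number 24906 it was -0.57 (adjusted p = 0.119). Within title numbers 24905 to 25006 the Gars effect was -0.33 in Gcn2+/- (2 libraries against 2) and 0.37 in Gcn2+/+, and within 25102 to 25801 it was 0.02 (2 against 2) and 0.48. No test was made within either range.

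Apoe is made mainly by astrocytes and microglia, and their markers are given beside it. The 9 of 9 astrocyte markers, none at 0, summed to 2927 to 3531 TPM in WTWT, 3738 to 4272 in WTHet, 2773 to 4087 in HetWT and 3146 to 3719 in HetHet. The astrocyte sum of every WTHet library thus exceeded that of every WTWT library, as Apoe did. Gfap, 1 of the 9, had a mean of 1664 TPM over the 24 libraries and so weighs heavily in the sum. By the mean log2 CPM of the 9 markers the groups overlapped, at 8.44 to 8.602 in WTWT and 8.515 to 8.671 in WTHet. In edgeR's test of the Gars effect in Gcn2+/+, 0 of the 9 were called and 4 lay above 0, and in the difference between Gcn2+/- and Gcn2+/+ 1 of the 9 was called higher (Slc1a2, a glutamate transporter). The 8 of 8 microglia markers summed to 224.5 to 339.4 TPM in WTWT, 265.6 to 345.0 in WTHet, 214.8 to 521.2 in HetWT and 272.2 to 310.3 in HetHet. The 9 Schwann cell markers summed to 28.27 to 46.24 TPM in WTWT, 34.34 to 2573 in WTHet, 35.54 to 2145 in HetWT and 27.86 to 245.1 in HetHet. The part of these cells in the Apoe result was not tested.

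In mice without Gcn2, Apoe had 1309, 1061 and 960.3 CPM in HomoWT and 964.1, 1256, 1276, 1058 and 1280 in HomoHet, groups that overlapped. The Gars effect in Gcn2-/- minus that in Gcn2+/+ was -0.43 ± 0.16, with a 95% confidence interval of -0.77 to -0.10 and an adjusted p of 0.937 by edgeR. In that difference 0 of 28 members were called by edgeR and 0 by DESeq2, where edgeR called 0.0115% of all genes. Apoe alone had an unadjusted p below 0.05, and 4.93% of all genes did. This comparison shares its WTWT and WTHet libraries with the one before. The next smallest p belonged to Srebf2 (-0.18 ± 0.11), Ebp (0.16 ± 0.12) and Insig2 (0.11 ± 0.10), each with an adjusted p of 0.937.

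Loss of Gcn2 itself gave no called member at either Gars genotype. With wild-type Gars, Gcn2-/- against Gcn2+/+ gave 0 of 28 by edgeR and 0 by DESeq2, where 0.0287% of all genes were called by edgeR and 3.68% had an unadjusted p below 0.05, which no member had. Apoe had the smallest p there, with a log2 fold change of 0.19 ± 0.12, and Idi1 the lowest fold change, -0.26 ± 0.27. With mutant Gars the count was again 0 of 28 by edgeR and 0 by DESeq2, where edgeR called 0.494% of all genes. Unadjusted p was below 0.05 for Apoe alone (-0.24 ± 0.10, adjusted p = 0.420) where 10% of all genes reached it. The lowest fold change belonged to Mvd, at -0.35 ± 0.21 (adjusted p = 0.632).

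Loss of 1 Gcn2 copy left Srebf1 nearest to a call among the regulators. Srebf1 had 77.2, 71.9, 62.0 and 64.7 CPM in WTWT and 87.1, 88.4, 89.1 and 87.4 in HetWT, groups that did not overlap. The log2 fold change was 0.35 ± 0.09 (SE), or 1.28-fold, with an adjusted p of 0.138 by edgeR. Apoe had 0.36 ± 0.11 (adjusted p = 0.141), Ggps1 had -0.18 ± 0.06 (0.172), Acat2 had -0.25 ± 0.09 (0.176) and Scap had 0.17 ± 0.06 (0.180). With wild-type Gars 0 of 28 members were called by edgeR, where 0% of all genes were, 5 members had an unadjusted p below 0.05, where 17.2% of all genes did, and DESeq2 called 2, Srebf1 (adjusted p = 0.0267) and Apoe (0.0448). With mutant Gars 0 of 28 were called by edgeR and 0 by DESeq2, where edgeR called 0% of all genes. Unadjusted p was below 0.05 for 2 members, Apoe (-0.27 ± 0.11, adjusted p = 0.435) and Scap (-0.13 ± 0.06, adjusted p = 0.455), where 10.9% of all genes reached it.

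No member passed the test between the sexes. Females against males gave 0 of 28 called by edgeR and 0 by DESeq2, where edgeR called 0.0804% of all genes. No member had an unadjusted p below 0.05, and 2.79% of all genes did. The largest difference was that of Pmvk, at -0.22 ± 0.15 on the log2 scale, and all 28 confidence intervals lay within 1.5-fold. Over the 9 comparisons of genotypes, 1 of the 252 tests of members was called.

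Genes around the pathway were described with 4 lists. Of the 16 tested genes of fatty acid synthesis and SREBP1 targets, 1 fell with mutant Gars in Gcn2+/+ mice and none rose. That gene was Acly, ATP citrate lyase, which supplies the acetyl-CoA that both fatty acid and cholesterol synthesis start from. Its CPM was 454, 467, 430 and 477 in WTWT and 378, 353, 404 and 369 in WTHet, groups that did not overlap. The log2 fold change was -0.28 ± 0.06 (SE, adjusted p = 0.0207 by edgeR). The fold change was -0.19 in Gcn2-/- mice (adjusted p = 0.878) and -0.23 in Gcn2+/- mice (adjusted p = 0.0875). Of 18 other settings 11 kept the call, with fold changes from -0.33 to -0.22. It was lost in a fit of the 4 genotypes of the design text alone (adjusted p = 0.0873), without WTHet 2 and 4 (0.191), without all 5 libraries high in Schwann cell markers (0.247), and without WTWT 2 (0.0684), WTWT 4 (0.101), WTHet 1 (0.0742) or WTHet 2 (0.0735) alone. The Schwann cell markers of these groups are given above, and their part in the Acly result was not tested.

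In the other 3 lists edgeR called 2 genes, both in the comparison of the Gars effects of Gcn2+/- and Gcn2+/+ mice, where 3.7% of all genes were called. In the other comparisons of genotypes at most 0.73% were. Of the 8 genes of SREBP processing and sterol-regulated degradation, Mbtps2, the site-2 protease that cuts SREBP in the membrane, had a difference of 0.54 ± 0.14 (adjusted p = 0.0459 by edgeR). Of the 7 genes of isoprenoid branches, Nus1, a subunit of the enzyme that makes dolichol, had 0.65 ± 0.15 (adjusted p = 0.0399). As with Apoe, 7 of 25 other settings kept the call of Mbtps2 and 9 of 25 that of Nus1, and leaving out 1 library at a time kept them in 3 and 5 of 16 cases. Of the 20 tested genes of cholesterol export, uptake, storage and oxysterols, 0 were called in any comparison of genotypes or sex by edgeR. Without adjustment, the number of them at p below 0.05 ran from 0 to 10, depending on the comparison. The share of all genes at that level was at most 23.4%, in the difference between Gcn2+/- and Gcn2+/+. The 10 of 20 lie above that share. This is a description of genes that may vary together, and the list was not tested as a set.

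Within genotypes, the enzymes varied together from library to library. To describe this, edgeR was fitted with the log2 level of Hmgcs1 as a covariate beside genotype and sex, and each gene's slope is its log2 change per log2 change of Hmgcs1. Hmgcs1 was chosen as the reference after its values were seen, and the members with earlier results of these data known. Of the other 27 members, 15 were called with Hmgcs1 and 0 against it, where 1.3% of 17408 genes were called with it and 1.68% against it (2.98% in all). The 15 included 12 of the 19 other enzymes. With title number in the fit 0 of the 27 were called, and without the 5 libraries of title number 24906 1 was. Sqle, the epoxidase, had the smallest p of all 17408 genes, with a slope of 0.53 ± 0.05 (SE) and an adjusted p of 4.87e-05. All points of this fit share their library with Hmgcs1, so a property of a library enters every slope.

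The enzymes' slopes differed in size. Idi1 had the steepest, at 0.85 ± 0.11, followed by Mvd at 0.74, Cyp51 at 0.66, Msmo1 at 0.63, and Hsd17b7 and Dhcr7 at 0.60. Lss was at 0.51, Sc5d at 0.44, Fdps at 0.42, Fdft1 at 0.41 and Mvk at 0.39. Another 3 members, with no synthesis step, were called too: Insig1 at 0.61 ± 0.10 (adjusted p = 0.00386), Stard4 at 0.48 and Srebf2 at 0.22 ± 0.05 (adjusted p = 0.0148). Insig1 and Stard4 are textbook targets of SREBP2. The 12 members without a call had slopes from -0.27 (Abca1) to 0.35 (Nsdhl, adjusted p = 0.0519). They included Insig2 at 0.06, Ggps1 at 0.01, Srebf1 at -0.04, Pmvk at -0.06, Scap at -0.15 (adjusted p = 0.1003) and Apoe at -0.23 (adjusted p = 0.140). Of the 30 genes with the smallest p in this fit, 9 were members. Pearson correlations of deviations from genotype means were also computed, with 100000 permutations within genotypes that ignored sex and title number. By these, 20 of the 27 members had an adjusted p below 0.05, and 17 of the 20 correlations were above 0. Those of Scap (-0.63), Apoe (-0.55) and Abca1 (-0.46) were below 0. With title number means also removed, they were -0.48, -0.39 and -0.16.

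**Figure D3:**
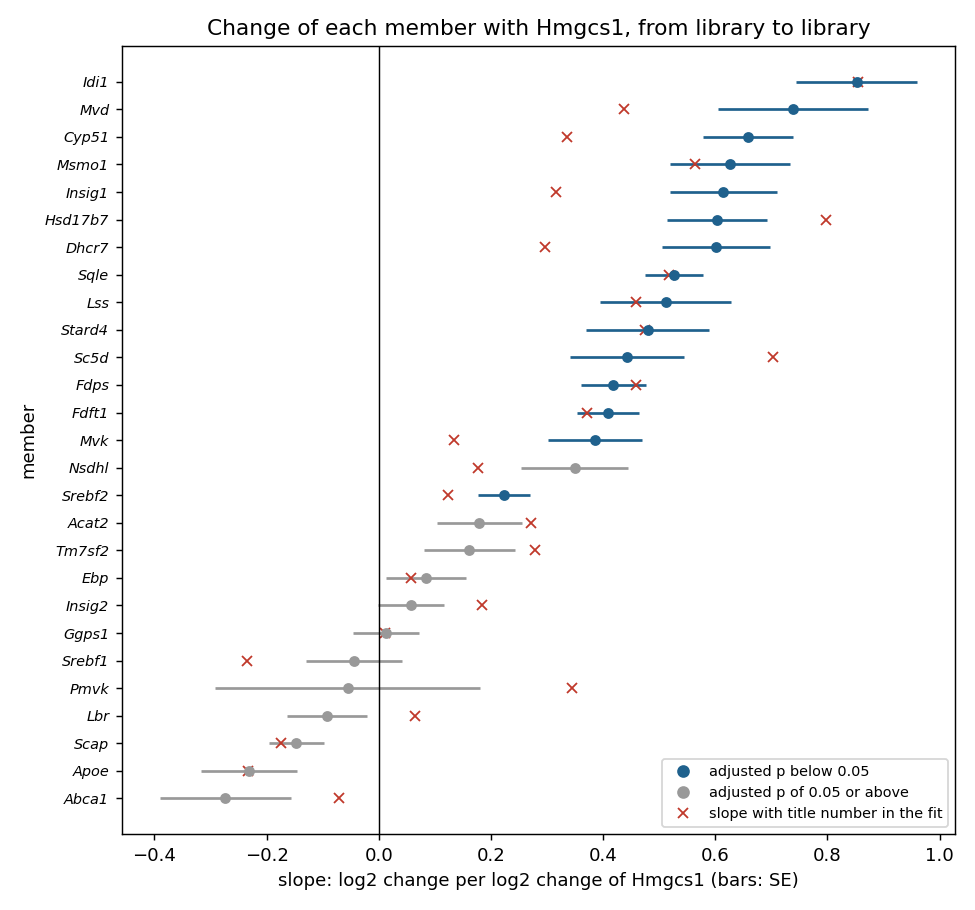
Slope of each other member on Hmgcs1 (horizontal axis, log2 change per log2 change; bars are SE; blue, adjusted p below 0.05 by edgeR) and, as crosses, the slope with title number in the fit. The 15 called members lie between 0.22 (Srebf2) and 0.85 (Idi1), and Abca1 is lowest at -0.27.

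Genes outside the pathway moved with Hmgcs1 as well. Of the fatty acid list, 3 of 16 were called with it, Elovl6 (fatty acid elongase, 0.46, adjusted p = 0.00373), Aacs (acetoacetyl-CoA synthetase, 0.48, 0.0124) and Mid1ip1 (0.34, 0.0134). Of the export and uptake list, Vldlr, a lipoprotein receptor, was called with it (0.26, 0.0190) and Abcg1, a sterol exporter, against it (-0.37, 0.0122). Of the 15 oligodendrocyte and myelin markers 5 were called with it (Ugt8a, Mog, Mag, Opalin and Fa2h), with a median slope of 0.21 over the list. Mbp, Mobp and Myrf had slopes below 0 without a call, at -0.09, -0.08 and -0.07. Ugt8a, which makes the myelin lipid galactosylceramide, had a slope of 0.93. The summed level of the 15 ran from 24050 to 32150 TPM in WTWT, 23340 to 28420 in WTHet and 22790 to 28800 in HomoWT. It was 20660 to 30750 in HomoHet, 25830 to 27860 in HetWT and 22260 to 24900 in HetHet. Mbp had a mean of 14890 TPM over the libraries and so weighs heavily in the sum. Of the 9 astrocyte markers 1 was called with Hmgcs1 (Aqp4) and 3 against it (Fgfr3, Gjb6 and Agt). Of the 8 microglia markers 1 was called with it (P2ry12, 0.48, adjusted p = 0.0397), and the median slope was 0.30. Of the 6 markers of oligodendrocyte precursors and newly formed oligodendrocytes 1 was called with it (Enpp6, 0.54, adjusted p = 0.0214). The part of these cell types in the slopes was not tested.

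**Figure D4:**
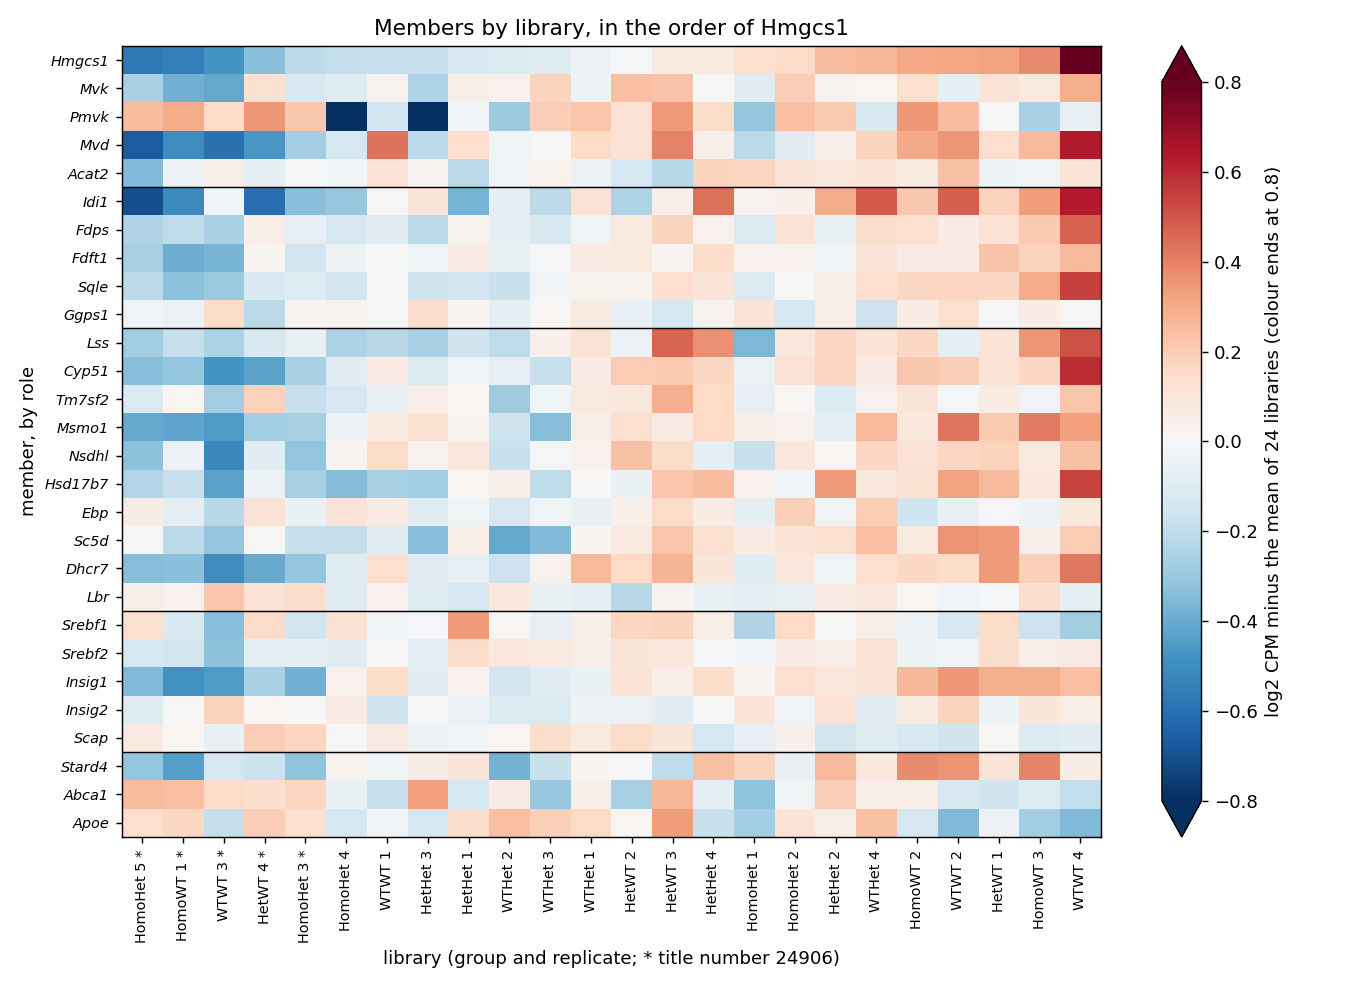
Log2 CPM of each member minus its mean over 24 libraries (colour, ending at 0.8 in each direction), with members by role in rows and libraries in columns, from lowest to highest Hmgcs1. The 5 libraries with an asterisk, of title number 24906, are the 5 lowest in Hmgcs1, and Pmvk, Scap, Abca1 and Apoe do not follow the enzymes.

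The 5 libraries of title number 24906 were at the low end. They are WTWT 3, HomoWT 1, HomoHet 3, HomoHet 5 and HetWT 4, from 4 genotypes, 3 male and 2 female, and they were singled out after their values were seen. Their Hmgcs1 ran from 408 to 525 CPM (mean 452 ± 49.9, SD, n = 5), and that of the other 19 from 532 to 1083 (mean 667 ± 133, SD, n = 19). In 5 of the 28 members all of these libraries lay below all of the others (Hmgcs1, Mvd, Cyp51, Dhcr7 and Insig1), and in 0.373% of the 17409 tested genes. Since the libraries were picked for low values of these genes, both counts are descriptions. The ratio of means was 0.641 for Mvd, 0.679 for Hmgcs1, 0.710 for Insig1, 0.715 for Dhcr7 and 0.723 for Cyp51. It lay below 1 for 18 of the 20 enzymes, 22 of the 28 members and 52.6% of the tested genes, and above 1 for Pmvk (1.21), Abca1 (1.18), Lbr (1.10), Scap (1.07), Apoe (1.07) and Insig2 (1.02). The summed level of the 20 enzymes was 1130 to 1321 TPM in these libraries and 1270 to 1961 TPM in the others.

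Insig1 shows the pattern at single libraries. Its CPM was 158.9, 182.6, 104.6 and 169.4 in WTWT, 102.4, 172.0 and 175.5 in HomoWT, and 175.4, 154.5, 148.4 and 119.7 in HetWT. In HomoHet it was 145.8, 157.6, 109.6, 146.8 and 112.0. The lowest value of WTWT, HomoWT and HetWT and the lowest 2 of HomoHet came from title number 24906. WTHet (138.2, 128.8, 135.1 and 153.7) and HetHet (146.4, 152.5, 135.3 and 159.0) had no library of that number and ran from 128.8 to 159.0.

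**Figure D5:**
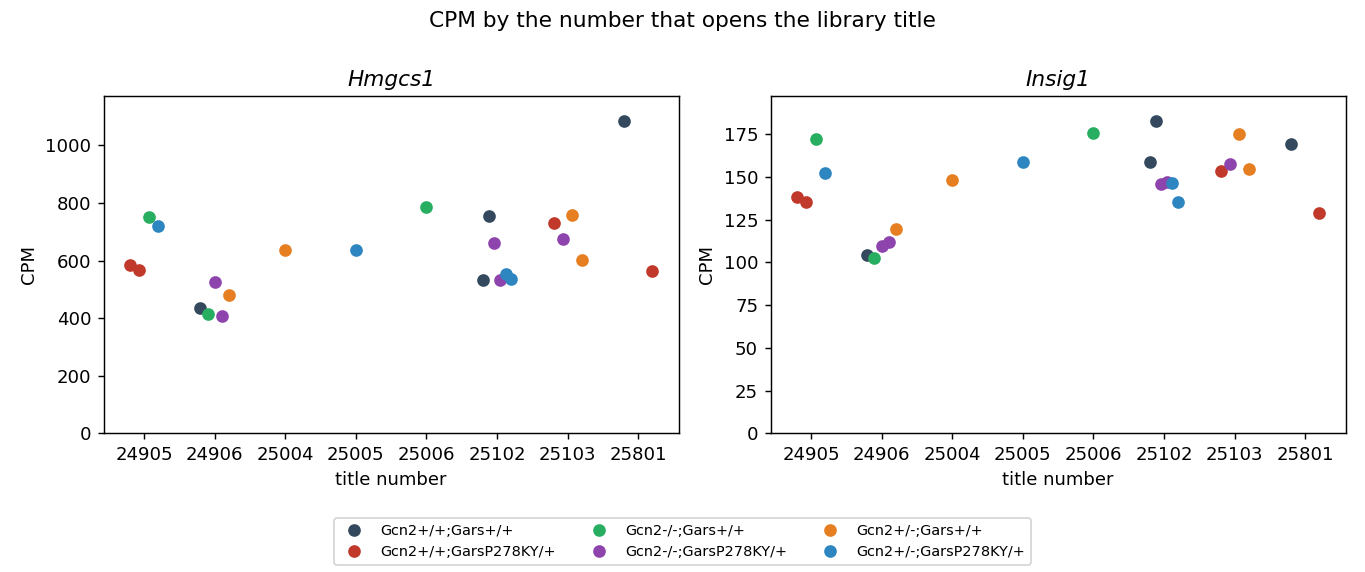
CPM (vertical axis, from 0) of Hmgcs1 and Insig1 in each library by the number that opens its title, coloured by genotype. The 5 libraries of number 24906 run from 408 to 525 CPM for Hmgcs1 and from 102.4 to 119.7 for Insig1, below all others.

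A test of any difference between the 8 title numbers, with genotype and sex in the fit, called 4 of the 28 members by edgeR (14.3%), against 3.52% of all genes. They were Insig1 (adjusted p = 0.00582), Cyp51 (0.0142), Lss (0.0337) and Dhcr7 (0.0362), while Hmgcs1 had 0.116. Unadjusted p was below 0.05 for 15 of the 28 (53.6%) against 19.1% of all genes. The test was chosen after the data were seen, and the 24906 libraries, picked for low values of these genes, are in it. Its counts are therefore descriptions too. The sets of libraries were unequal, and the count of called members ran from 1 (without HetWT 4) to 7 (without WTHet 4) when 1 library was left out. It was 2 without WTWT 2, WTHet 3, HomoWT 1, HomoWT 2, HomoHet 4, HomoHet 5, HetHet 1, HetHet 3 or HetWT 1. Lss had its lowest means at numbers 25102 (72.3 ± 4.89 CPM, SD, n = 6) and 24906 (74.3 ± 4.64, SD, n = 5), and the 4 libraries of 24905 averaged 91.5 CPM. With title number in the fit of slopes, the slope of Sqle was 0.52 (adjusted p = 0.313) and that of Idi1 0.85, while those of Cyp51, Insig1 and Dhcr7 were 0.34, 0.32 and 0.30. Without HomoWT 1 alone 9 of the 27 were called with Hmgcs1.

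Cell markers of the 24906 libraries did not all lie on the low side. Their mean log2 CPM was 4.22 against 4.56 in the others for microglia and 8.89 against 8.94 for oligodendrocytes. It was 8.64 against 8.51 for astrocytes and 5.50 against 5.23 for endothelial cells. The 8 microglia markers had a mean log2 CPM of 3.96 to 4.44 in these libraries and of 4.23 to 5.12 in the others. The 9 astrocyte markers were at 8.60 to 8.68 against 8.33 to 8.67, the 5 endothelial markers at 5.40 to 5.63 against 5.03 to 5.55, and the 15 oligodendrocyte markers at 8.80 to 8.97 against 8.76 to 9.34. Schwann cell markers were at 0.43 to 1.92 against 0.34 to 5.80, and markers of meninges and fibroblasts at 1.53 to 2.25 against 1.89 to 6.64. All of these ranges overlap. The part of these cells in the lower levels was not tested. Genotype differences of Hmgcs1 had unlike signs in the 2 ranges of title numbers, from few libraries and without a test. The Gars effect in Gcn2+/+ was 0.40 within title numbers 24905 to 25006 (2 libraries against 1) and -0.24 within 25102 to 25801 (2 against 3), and in Gcn2+/- it was 0.29 and -0.32. In the first range the only WTWT library is WTWT 3, and 1 of the 2 HetWT libraries is HetWT 4. Both have title number 24906, picked for low Hmgcs1, and WTHet and HetHet hold no library of that number.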

How the data were processed

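Each library's table was deposited by the authors with expected counts and TPM for every gene. The submitters' processing notes name RSEM 1.2.12 and Bowtie2 2.2.0. For the genome build and annotation they used, nothing is given in the sources used here. Of 38924 listed genes, 37607 matched GENCODE M21 identifiers (GRCm38), and the rest held 0.261% of the counts. The deposited expected counts share out ambiguous reads (72.03% of those above 0 were whole to within 0.005) and were rounded. The deposited TPM values were used only to describe levels. Genes low in counts were removed with filterByExpr, leaving 17409. Counts of all 24 libraries were scaled by TMM and fitted in edgeR 4.0.16 (R 4.3.3) with 6 genotype groups and sex. Calls are at a Benjamini-Hochberg adjusted p below 0.05 over all tested genes in the quasi-likelihood F test, whose common biological coefficient of variation was 0.225. The series was processed this way in earlier work, and the members, gene lists and title number 24906 were chosen with earlier results of these data known. All members are open to naming, with full values for called members or the 4 smallest p of a comparison, and up to 4 genes of a list. Alternatives were DESeq2 1.42.0, other size factors, no filter, no sex term, title number as a block, and libraries left out. Only edgeR's test of the Gars effect in Gcn2+/+ was tried on simulated counts, without differences by sex or title number. Its outcome is not given here, and the other fits were not tried in this way. No libraries held identical values.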

Additional observations from a re-analysis of the deposited data

Results flagged for a closer look

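Each set searched was a member, or the enzymes' mean log2 CPM, within a genotype of 4 or 5 libraries. The lists of cell markers were not searched. In 3 of the 145 sets the highest or lowest library stood far from the rest by Dixon's test, which chance gives in about 5% of sets. They were Hmgcs1 in WTHet 4 (728.6 CPM, the highest of 4), Nsdhl in WTWT 3 (30.19 CPM, the lowest of 4) and Abca1 in WTHet 3 (50.66 CPM, the lowest of 4). WTWT 3 has title number 24906, and WTHet 4 is high in Schwann cell markers.

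In 3 genes the effect of mutant Gars differed between Gcn2+/- and Gcn2+/+ mice by edgeR's test of the difference, on the log2 scale. The difference was -0.62 for Apoe, 0.54 for Mbtps2 and 0.65 for Nus1.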

How the results depend on the processing

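For 43 named fold changes, 896 values were computed under other settings. Direction and side of the threshold were kept in 822, a call was lost in 57 and gained in 15, and the sign changed in 2. Those 2 were Lss in the Gars effect in Gcn2-/- mice with title number as a replicate block (0.0070) and Idi1 in the loss of Gcn2 with wild-type Gars without HomoWT 1 (0.011, and -0.41 without HomoWT 3). Called members in any genotype difference went from 0 to 1 with DESeq2 (Apoe). In the Gars effect in Gcn2+/+ they went from 0 to 1 with DESeq2 and lay between 0 and 2 with 1 library left out (2 without WTWT 1: Apoe and Insig2). In the effect of 1 lost Gcn2 copy with wild-type Gars they went from 0 to 2 with DESeq2 and lay between 0 and 2 with 1 library left out (2 without WTWT 1: Srebf1 and Apoe). In the difference between Gcn2+/- and Gcn2+/+ the 1 called member became 3 with DESeq2, 2 without the sex term and 0 without the count filter, with title number as a replicate block, without WTHet 2 and 4, without the 5 libraries high in Schwann cell markers and without the 5 of number 24906. It lay between 0 and 4 with 1 library left out. Members called between title numbers lay between 1 and 7. Members called with Hmgcs1 fell from 15 to 0 with the block, to 1 without the 24906 libraries, and lay between 9 and 16 with 1 library left out. Members called against it rose from 0 to 1 without WTWT 3 and 4, and lay between 0 and 1 with 1 library left out. The causes were not tested. Same-numbered libraries deviated together only in part: the median correlation of deviations was 0.178 over 38 pairs with the same title number (28 above 0.1) and -0.074 over 238 other pairs, and 9 of 21 libraries correlated best with one of their own number. Groups of 3 to 5 libraries limit the genotype comparisons: differences under 1.5-fold were within the confidence intervals of several members. The Schwann, 24906, WTWT 3 and 4 and slope settings, and the test between title numbers, were chosen after seeing the data.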
